A study of Homo sapiens with 10 samples.

Results

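The genes for fatty acid synthesis, elongation and desaturation, together with the fatty acid carrier FABP5, were described in T24 and T24R2 bladder cancer cells. The group held 10 genes of the 61533 in the count tables, namely ACLY, ACACA, FASN, ELOVL6, ELOVL5, SCD, FADS2, FADS1, SREBF1 and FABP5. T24 is an established human bladder cancer cell line, and T24R2 is its cisplatin-resistant derivative, a single resistant line raised from T24 by serial exposure to the drug. Both lines were grown in RPMI medium with fetal bovine serum and harvested on day 3, with 5 RNA-seq libraries per line and no further genotype or agent in the labels. T24R2 is maintained in cisplatin according to the methods, whereas the labels list no drug in the medium of either line, so that resistance and exposure to the drug cannot be told apart in this comparison. Nothing in the labels says that the replicates were separate cultures, so p-values measure only the spread between these libraries, which may be technical. The question behind the comparison was which transcripts differ in both RNA methylation and expression between cisplatin-sensitive and cisplatin-resistant cells. Only expression is described here. These 10 genes were chosen from earlier results of this same comparison. Their differences between the lines, and whether each was called, are therefore a description only, and no p-value is printed for them.

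Cells make saturated fatty acids from citrate. ACLY splits cytosolic citrate into acetyl-CoA, ACACA carboxylates acetyl-CoA to malonyl-CoA, and FASN joins these units into palmitate. ELOVL enzymes lengthen the chain in the endoplasmic reticulum, SCD turns stearate and palmitate into the monounsaturated oleate and palmitoleate, and FADS2 and FADS1 desaturate the polyunsaturated chains. SREBF1 encodes the transcription factor SREBP-1, which drives most of these genes and is held in the endoplasmic reticulum by INSIG proteins and SCAP until sterols run low. FABP5 is a small cytosolic protein that binds long-chain fatty acids and carries them to membranes, to lipid droplets and to the nuclear receptor PPARD. The ratio of monounsaturated to polyunsaturated chains in membrane lipids is known to bear on lipid peroxidation and ferroptosis, which the study examined in these cells.

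Total counts were 9257843 to 10840954 per library, and replicate pairs differed by more than sampling noise, with a chi-square per degree of freedom of 2.01 to 7.04 over the 20 pairs within a line. Values are given as CPM (counts scaled to library size, with the TMM factors of edgeR) when lines are compared, and as TPM (counts divided by exon length and scaled to the same total in each library) when genes are ordered within a line. A gene was called at an adjusted p-value under 0.05 (edgeR quasi-likelihood test, Benjamini-Hochberg over all genes) and a log2 fold change above 0.5 in size. By this rule 8309 of the 16181 tested genes (51.4%) were called, 4027 higher in T24R2 (24.9%) and 4282 lower (26.5%), and for 61.2% of all tested genes the libraries of the lines did not overlap. Without any scaling beyond library size, 5206 genes were higher and 3431 lower, and the median over the tested genes was 0.18 instead of 0.01 on the log2 scale. Of the urothelial markers, the epithelial keratins KRT7, KRT8 and KRT18 were abundant in both lines, KRT5, KRT20 and UPK1B were at or near 0 in both, and KRT19, GATA3 and EPCAM were at or near 0 in T24R2. The 16 urothelial markers summed to 4938 to 5672 CPM in T24 and 3006 to 3207 CPM in T24R2.

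All 10 genes passed the filter on low counts, and 5 of them (SCD, SREBF1, FADS2, ACACA and FASN) were called higher in T24R2, 2 (FABP5 and ELOVL6) were called lower and 3 (FADS1, ACLY and ELOVL5) were not called. The libraries of the lines did not overlap for any of the 10 genes. The log2 fold changes ran from -4.41 for FABP5 to 3.23 for SCD, with standard errors of 0.04 to 0.10 and a median of 0.655, against a median of 0.01 over all tested genes. Because the genes were selected on this contrast, nothing is read from these counts against the 51.4%, 24.9%, 26.5% and 61.2% of all genes. In bulk RNA, a change in the number of cells that express a gene and a change in the RNA per cell cannot be told apart.

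**Figure D1:**
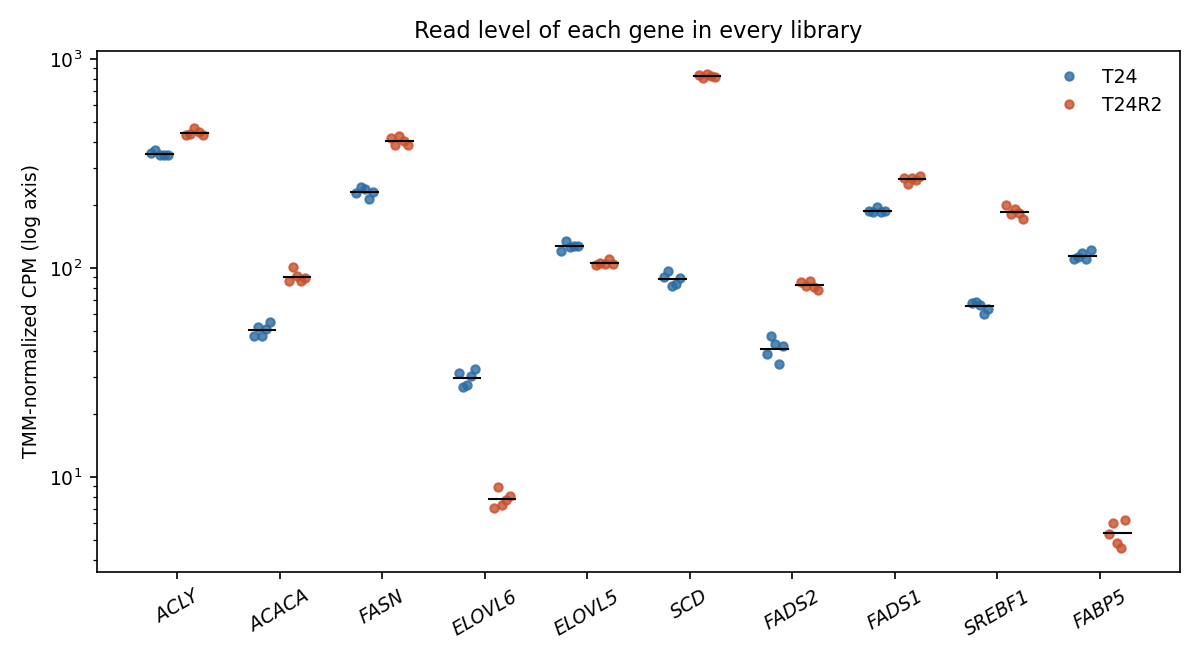
TMM-normalized CPM (log axis) of the 10 genes in each of the 5 T24 and 5 T24R2 libraries, with a line at each mean. The libraries of the lines do not overlap for any gene; SCD is the highest of the 10 genes in T24R2 at 826 CPM and FABP5 the lowest at 5.37 CPM.

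The enzymes that make palmitate were all higher in T24R2, by less than 2-fold. FASN (ENSG00000169710.9, chromosome 17 of hg38, 82078338 to 82098294) had 227, 243, 239, 214 and 231 CPM in the T24 libraries and 416, 386, 428, 405 and 388 CPM in the T24R2 libraries. Every T24R2 library lay far above the highest T24 library, a 1.75-fold difference in mean CPM and a log2 fold change of 0.81 (standard error 0.04). ACACA (ENSG00000278540.5, chromosome 17, 37084992 to 37406836), which makes the malonyl-CoA that FASN uses, had 47.4, 52.0, 47.4, 51.2 and 55.1 CPM in T24 against 86.5, 101, 91.1, 86.2 and 89.3 CPM in T24R2. Its log2 fold change of 0.84 (standard error 0.06) was close to that of FASN. ACLY (ENSG00000131473.17, chromosome 17, 41866917 to 41930542) differed least of these enzymes, from 352 ± 8.835 CPM in T24 (SD, n = 5) to 443 ± 13.9 CPM in T24R2 (SD, n = 5). Although its libraries did not overlap, its log2 fold change of 0.33 (standard error 0.04) was under the 0.5 needed for a call.

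The elongases showed another pattern. ELOVL6 (ENSG00000170522.10, chromosome 4, 110045846 to 110199199), which extends palmitate to stearate and so provides a substrate of SCD, was 31.4, 27.0, 27.5, 30.2 and 32.8 CPM in T24 and 7.07, 8.93, 7.29, 7.75 and 8.06 CPM in T24R2. The T24R2 level was 26.2% of the T24 level, a log2 fold change of -1.93 (standard error 0.10), at 241 to 304 counts per T24 library and 76 to 103 per T24R2 library. ELOVL6 was thus lower in T24R2 while FASN before it and SCD after it in the pathway were higher. ELOVL5 (ENSG00000012660.14, chromosome 6, 53267398 to 53349179), which extends polyunsaturated chains, was 127 ± 4.89 CPM in T24 and 105 ± 2.865 CPM in T24R2 (SD, n = 5 each). Its log2 fold change of -0.27 (standard error 0.05) was not called. Within a library, the TPM of ELOVL5 was 8.19 ± 0.91 times that of ELOVL6 in T24 and 25.9 ± 2.15 times in T24R2 (SD, n = 5 each).

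SCD differed most among the enzymes. SCD (ENSG00000099194.6, chromosome 10, 100347233 to 100364826), the stearoyl-CoA desaturase that makes oleate, was 90.5, 96.4, 81.5, 83.2 and 89.1 CPM in T24 and 833, 807, 842, 827 and 820 CPM in T24R2. The mean was 9.37-fold higher in T24R2, a log2 fold change of 3.23 (standard error 0.05), and the counts behind it were 713 to 916 per T24 library and 8341 to 9309 per T24R2 library. The T24R2 libraries were closer to each other than the T24 libraries, with a coefficient of variation of 1.60% against 6.77%. Only 5.16% of all tested genes had a larger absolute log2 fold change than SCD. The other human stearoyl-CoA desaturase, SCD5, was lower in T24R2, at 15.7 ± 1.76 CPM against 24.6 ± 0.80 CPM in T24 (SD, n = 5 each; log2 fold change -0.64, standard error 0.09, edgeR adjusted p = 9.9e-08), although without scaling beyond library size it was no longer called (-0.48).

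The polyunsaturated fatty acid desaturases differed less than SCD. FADS2 (ENSG00000134824.14, chromosome 11, 61792980 to 61867354), which opens the pathway to long polyunsaturated chains, was 38.5, 46.9, 43.2, 34.6 and 42.1 CPM in T24 and 85.4, 82.1, 86.3, 81.3 and 78.6 CPM in T24R2. That was a 2.01-fold difference in mean CPM, with a log2 fold change of 1.01 (standard error 0.07). FADS1 (ENSG00000149485.19, chromosome 11, 61799627 to 61829318), which acts later in the same pathway, was 186, 185, 195, 184 and 187 CPM in T24 and 268, 251, 269, 264 and 274 CPM in T24R2. FADS1 was 1.41-fold higher in T24R2, and its log2 fold change before rounding was 0.4999 (standard error 0.04), so that it fell just short of the 0.5 needed for a call. In 7 of its 20 alternatives FADS1 was called, at 0.50 to 0.66. FADS3, the remaining gene of the cluster, was 101 ± 6.77 CPM in T24 and 88.0 ± 5.40 CPM in T24R2 (SD, n = 5 each), and its libraries overlapped (log2 fold change -0.21, standard error 0.05, edgeR adjusted p = 0.00093, not called).

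The annotated span of FADS1 lies within that of FADS2 on the opposite strand, and the genes share 490 exon bases, 4.79% of the exons of FADS1 and 4.64% of those of FADS2. Counting used the strand of the reads, but the sources used here do not describe whether the library kit kept the strand, so reads in the shared bases may belong to either gene. When every FADS2 count was taken off FADS1, a bound chosen after seeing the data, the log2 ratio of FADS1 was 0.32 instead of 0.50. The reverse could not be done, since FADS1 had more counts than FADS2. Within a library, FADS1 TPM was 4.76 ± 0.53 times FADS2 TPM in T24 and 3.31 ± 0.17 times in T24R2, and SCD TPM was 4.35 ± 0.43 times FADS2 TPM in T24 and 20.1 ± 0.61 times in T24R2 (SD, n = 5 each).

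**Figure D2:**
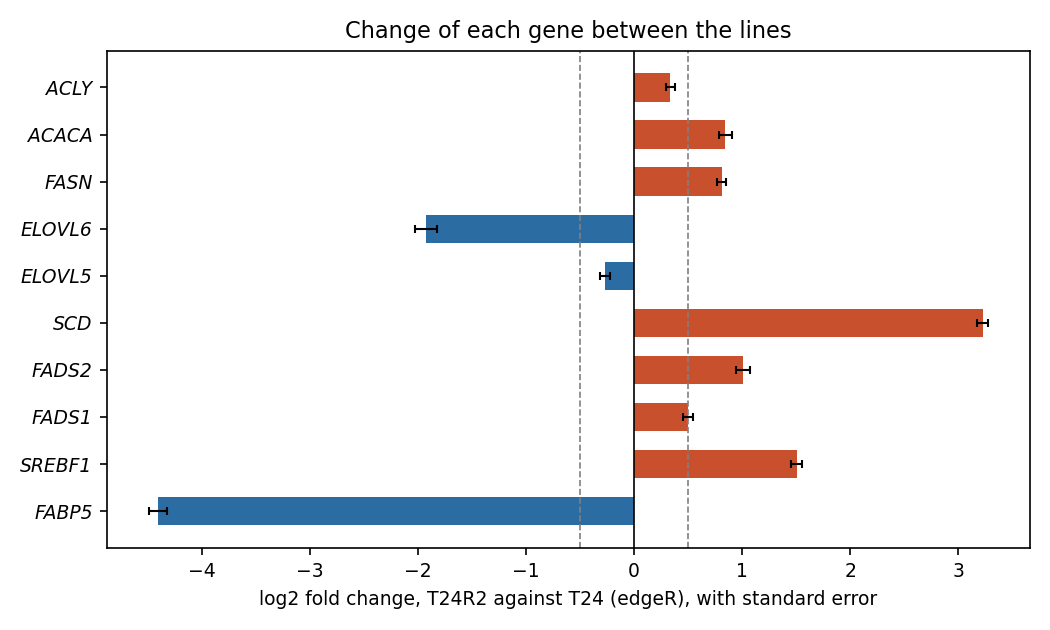
Log2 fold change in T24R2 against T24 of each gene from edgeR, with its standard error from 5 libraries per line; bars to the right are higher in T24R2, and dashed lines mark the fold needed for a call. The genes run in pathway order from ACLY, and ELOVL6 at -1.93 lies between FASN at 0.81 and SCD at 3.23.

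The order of the genes by level per length differed between the lines. In T24, ACLY led with 207 ± 2.56 TPM (SD, n = 5), followed by FABP5 with 184 ± 9.65 TPM, ELOVL5 with 102 ± 3.96 TPM and FASN with 75.9 ± 3.24 TPM. FADS1 and SCD came next at 56.3 ± 1.71 and 51.5 ± 2.83 TPM, and their libraries overlapped. SREBF1 followed at 24.3 ± 0.95 TPM, and the lowest levels, those of ELOVL6, FADS2 and ACACA, were between 10.2 and 14.0 TPM and could not be ordered beyond their spread. In T24R2, SCD led with 564 ± 4.64 TPM, ahead of ACLY with 305 ± 8.63 TPM and FASN with 155 ± 5.425 TPM. ELOVL5 (99.1 ± 3.44 TPM) and FADS1 (93.0 ± 2.73 TPM) overlapped, as did FADS2 (28.1 ± 0.81 TPM) and ACACA (25.0 ± 1.78 TPM), with SREBF1 between these pairs at 80.7 ± 3.74 TPM. FABP5 was the last but one in T24R2, at 10.1 ± 1.42 TPM, and ELOVL6 the lowest at 3.86 ± 0.40 TPM. FABP5 went from a share of 25.0% ± 0.93 of the summed TPM of the 10 genes in T24 to 0.742% ± 0.11 in T24R2. SCD went from 9.30% ± 0.45 of the summed TPM of the genes other than FABP5 to 41.7% ± 0.30 (SD, n = 5 each). Set against all genes, SCD was above 98.8% of the tested genes by TPM within T24R2 and above 80.9% within T24, and FABP5 was above 36.9% and 95.3%.

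**Figure D3:**
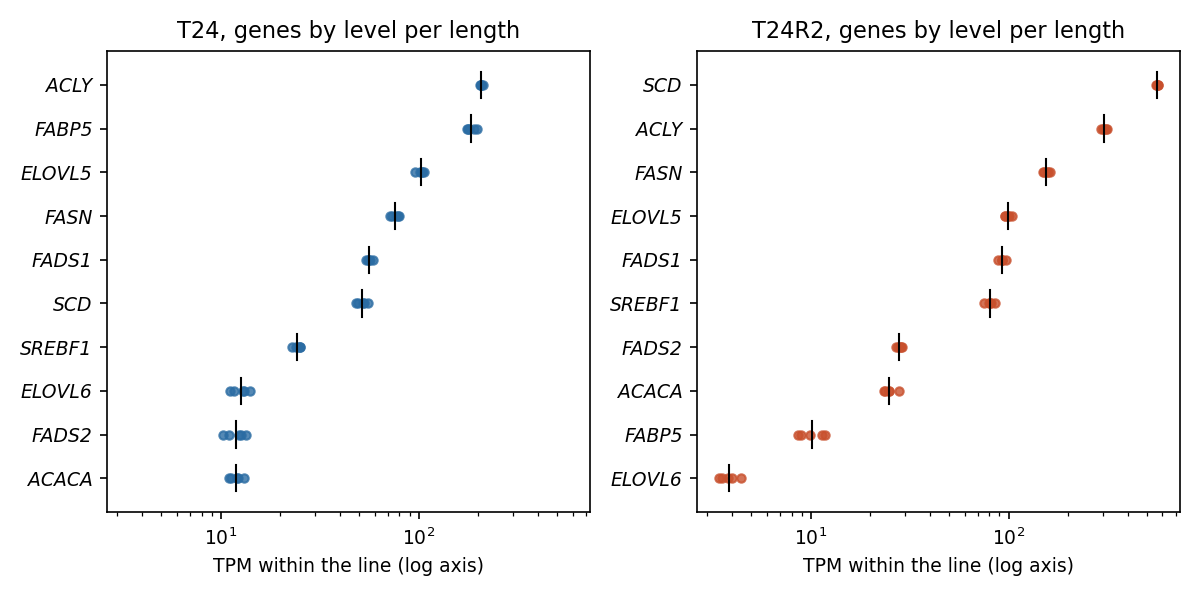
TPM (log axis) of the 10 genes in each of the 5 libraries of T24 (left) and T24R2 (right), ordered within each line, with a line at the mean. ACLY and FABP5 lead in T24 and SCD leads in T24R2, where FABP5 and ELOVL6 are lowest; TPM is read here within a line and not between the lines.

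SREBF1 (ENSG00000072310.18, chromosome 17, 17810399 to 17837002) was 68.0, 68.4, 66.2, 60.1 and 63.8 CPM in T24 and 199, 182, 190, 184 and 172 CPM in T24R2. The mean was 2.84-fold higher in T24R2, a log2 fold change of 1.51 (standard error 0.05), with 559 to 655 counts per T24 library and 1746 to 2171 per T24R2 library. SREBF1 shares 556 exon bases (6.75%) with RAI1 on the opposite strand. RAI1 went the other way, with a log2 fold change of -0.41 (standard error 0.05, edgeR adjusted p = 1.1e-09, not called). The RAI1 counts could not be taken off SREBF1, since RAI1 had more counts in T24 (a mean of 1237 against 607). How far the shared bases bear on SREBF1 was therefore not tested. SREBF1 transcript levels do not report the cleavage that activates the protein, which RNA-seq does not measure.

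Among the genes that control SREBP, 17 of 18 listed genes were tested (median log2 fold change 0.21). In T24R2, 4 were called higher (23.5%, beside 24.9% of all tested genes) and 1 lower (5.88%, beside 26.5%). INSIG1, which retains the SCAP-SREBP complex and is itself an SREBP target, rose from 12.6 ± 1.71 CPM in T24 to 203 ± 11.7 CPM in T24R2 (SD, n = 5 each; log2 fold change 4.01, standard error 0.07, edgeR adjusted p = 1.9e-36). INSIG1 rose more than any of the 10 genes, whereas its relative INSIG2 was 28.4 ± 2.18 CPM in T24 and 27.0 ± 2.45 CPM in T24R2 with overlapping libraries (log2 fold change -0.07, standard error 0.08, edgeR adjusted p = 0.46). SREBF2, which encodes the SREBP of cholesterol synthesis, rose from 207 ± 6.80 to 332 ± 11.3 CPM (log2 fold change 0.68, standard error 0.04, edgeR adjusted p = 1.8e-17). USF2, a partner of SREBP-1 on lipogenic promoters, rose by 0.79 (standard error 0.06, edgeR adjusted p = 2.3e-15), and the CCAAT-box subunit NFYA was called just over the threshold at 0.51. NFYA was not called without T24 replicate 1 (0.47), T24 replicate 4 (0.48), T24 replicate 5 (0.495) or T24R2 replicate 5 (0.4999), which left 3 genes of the list called higher. The gene called lower was MLX, the partner of the carbohydrate-responsive factor MLXIPL, at -0.55 (standard error 0.07, edgeR adjusted p = 1.9e-09). MLXIPL itself had at most 1 count in any library and was not tested, and MLX was not called without scaling, with upper-quartile scaling or without T24R2 replicate 3. SCAP (log2 fold change 0.40, standard error 0.06) and NR1H3, the LXR-alpha gene that induces SREBF1 (-0.38, standard error 0.12), were not called.

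Promoter windows are shown for SCD and SREBF1, whose transcripts were higher in T24R2 and share SREBP as a known regulator, and for ELOVL6, which was lower although it is a known SREBP-1 target too. The 250 bases before each start are taken from RefSeq (GRCh38.p14), 5′ to 3′ on the strand of the gene, and capitals mark every CCAAT box (CCAAT) and GC box (GGGCGG) found on either strand. The SCD window is chr10:100346983-100347232 on the plus strand, that of SREBF1 chr17:17836987-17837236 on the minus strand, and that of ELOVL6 chr4:110198616-110198865 on the minus strand.
SCD: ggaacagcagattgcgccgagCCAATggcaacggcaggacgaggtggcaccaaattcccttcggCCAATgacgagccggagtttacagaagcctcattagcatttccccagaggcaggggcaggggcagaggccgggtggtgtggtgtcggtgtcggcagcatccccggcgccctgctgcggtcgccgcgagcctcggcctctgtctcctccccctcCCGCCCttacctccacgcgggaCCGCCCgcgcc
SREBF1: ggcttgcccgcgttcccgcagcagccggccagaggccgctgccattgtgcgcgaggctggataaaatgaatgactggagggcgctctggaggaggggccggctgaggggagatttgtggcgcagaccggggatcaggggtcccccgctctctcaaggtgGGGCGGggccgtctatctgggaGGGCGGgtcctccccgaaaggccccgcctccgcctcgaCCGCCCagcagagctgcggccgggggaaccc
ELOVL6: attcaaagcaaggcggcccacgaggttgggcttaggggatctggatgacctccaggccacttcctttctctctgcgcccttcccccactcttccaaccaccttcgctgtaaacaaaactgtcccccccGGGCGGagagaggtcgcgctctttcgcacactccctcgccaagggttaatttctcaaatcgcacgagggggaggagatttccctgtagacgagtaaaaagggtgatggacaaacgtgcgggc

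The SCD window holds 2 CCAAT boxes, beginning 229 and 186 bases before the start, and 2 GC boxes near the start. SREBF1 and ELOVL6 hold no CCAAT box in these bases, and hold 3 and 1 GC boxes. Windows from 250 bases before to 50 after the start were found for 8 of the 10 genes, and were not found for FASN and FABP5. There were 12 windows, since FADS2, ACACA and ACLY had more than 1 in this reference. SREBF1 and the other genes had 1 window each, and any further start of these genes was not searched. A CCAAT box was in 7 of the 12 windows (34.6% of all 35116 windows hold one) and a GC box in 9 of the 12 (45.0% of all windows). The E-box CACGTG was in 1 window, that of ELOVL5 (7.26% of all windows), and neither the sterol regulatory element TCACNCCAC (1.13% of all windows) nor the PPAR direct repeat (AGGTCA repeated with a spacer of 1 base, 0.0228% of all windows) was in any of the 12. These matches are descriptions of the letters in the windows. No match says only that these letters are not in these bases.

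FABP5 differed most of the 10 genes. FABP5 (ENSG00000164687.11, chromosome 8, 81280536 to 81284777) was 110, 112, 118, 110 and 122 CPM in T24 and 5.32, 5.98, 4.80, 4.54 and 6.19 CPM in T24R2. T24R2 kept 4.69% of the T24 level, a 21.3-fold difference and a log2 fold change of -4.41 (standard error 0.08), and 3.23% of all tested genes had a larger absolute change. Counts were 1024 to 1125 per T24 library and 50 to 69 per T24R2 library, so the T24R2 level was low but well above the floor of 3 counts. Its coefficient of variation was 13.4% in T24R2, the highest of the 10 genes in either line, and 4.415% in T24.

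FABP5 has 15 annotated pseudogene copies, whose reads cannot always be told from those of the parent gene. The copies summed to a mean of 31.8 counts per library in T24 and 18.8 in T24R2, against 1062 and 58.2 for FABP5. With all copies added, the log2 ratio of FABP5 was -4.05 instead of -4.41. Of the 2 copies that were tested, FABP5P7 had a log2 fold change of -3.66 and FABP5P3 one of 0.60. FABP5 also shares 80 exon bases with LNMICC, a long non-coding RNA gene on the opposite strand at its start. LNMICC fell from 57.8 ± 2.97 to 3.05 ± 0.66 CPM (SD, n = 5 each; log2 fold change -4.24, standard error 0.11, edgeR adjusted p = 1.2e-30). Taking every LNMICC count off FABP5 left a log2 ratio of -4.61.

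Most other FABP genes had few or no counts in these cells. Of the 18 listed genes of the FABP family, related carriers and fatty acid receptors, 9 were tested (median log2 fold change -0.32). Of these, 1 was called higher (11.1%, beside 24.9% of all tested genes) and 4 lower (44.4%, beside 26.5%). FABP4, the adipocyte member and the nearest tested gene downstream of FABP5, was 27.4 ± 1.86 CPM in T24 (SD, n = 5) and at or under 2 counts in every T24R2 library, at least 98.8-fold lower when set against the floor of 3 counts per library. FABP3 was near 1 CPM in both lines, and FABP1, FABP2 and PMP2 had 0 counts in all 10 libraries, which allows at most 3 counts per library. CRABP2, which carries retinoic acid and belongs to the same protein family, fell from 3.17 ± 0.60 to 1.25 ± 0.57 CPM (log2 fold change -1.33, standard error 0.30, edgeR adjusted p = 0.00015). DBI, the acyl-CoA binding protein, was the gene called higher, from 47.6 ± 3.49 to 90.8 ± 12.1 CPM (log2 fold change 0.93, standard error 0.07, edgeR adjusted p = 6.8e-15).

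The receptor that FABP5 is known to supply, PPARD, was 76.9 ± 3.04 CPM in T24 and 76.6 ± 3.64 CPM in T24R2, with overlapping libraries (SD, n = 5 each; log2 fold change -0.01, standard error 0.05, edgeR adjusted p = 0.93). PPARG, the receptor of adipocyte and urothelial differentiation, which induces FABP4, fell from 75.9 ± 2.45 to 26.2 ± 3.83 CPM (log2 fold change -1.54, standard error 0.07, edgeR adjusted p = 2.4e-21). RXRA, the partner of the PPAR receptors, fell by 0.77 on the log2 scale (standard error 0.05, edgeR adjusted p = 2.3e-16). The 8 adipocyte markers summed to 26.6 to 32.3 CPM in T24 and 1.96 to 3.30 CPM in T24R2. FABP4 made up nearly all of the sum in T24, and ADIPOQ, LEP and CIDEA had 0 counts in every library, while CIDEC and LPL had at most 1. PLIN1 was 1.26 ± 0.59 CPM in T24 and 1.59 ± 0.20 CPM in T24R2. PLIN4 was 0.82 ± 0.22 and 1.00 ± 0.39 CPM, and the libraries of the lines overlapped for both genes. The 5 endothelial markers also differed, from 226 to 278 CPM in T24 to 1.60 to 2.50 CPM in T24R2, nearly all of it CDH5, with KDR at 0 counts in T24. Immune markers were at most 2.98 CPM in sum in any library, and fibroblast markers 8.86 to 11.2 CPM in T24 and 0.954 to 2.02 CPM in T24R2.

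The tested genes nearest to each of the 10 genes on the chromosome were set beside them. For comparison, 24.9% of all tested genes were called higher and 26.5% lower. Around FABP5, within 5 tested genes on each side, 4 were called lower and 3 higher, from FABP4 and LNMICC with their falls to PAG1 (log2 fold change 2.34, standard error 0.13, edgeR adjusted p = 9.3e-20) and ZNF704 (4.82, standard error 0.46, edgeR adjusted p = 3e-12). Around SCD none of 10 was called higher and 2 were called lower, with a median of -0.39, while SCD was at 3.23. The nearest tested genes, BLOC1S2 at 0.03 and OLMALINC at -0.13, were not called. Around FASN 7 of 10 were called lower and none higher (median -1.35), the largest fall being that of the lactate transporter SLC16A3 from 441 ± 39.8 to 41.6 ± 3.34 CPM (log2 fold change -3.41, standard error 0.06, edgeR adjusted p = 4e-36). FASN was thus the only gene of its stretch, from 82031678 to 82273700 on chromosome 17, that was called higher. Around FADS1 6 of 10 were called higher and 1 lower, with a median of 0.99, while FADS1 was at 0.50. These 6 included FADS2, itself 1 of the 10 genes described here. They also included BEST1 (1.05) and FTH1 (0.97), whose annotated spans overlap, and whether the same transcripts were counted for both was not tested. Around FADS2 3 of 10 were called higher and 1 lower (median 0.16), and around ACACA 5 of 10 were called higher and none lower (median 0.40). In the FADS cluster the neighbour MYRF, whose product is a transcription factor of myelin-forming cells, fell from 70.9 ± 3.92 to 10.3 ± 1.40 CPM (log2 fold change -2.79, standard error 0.08, edgeR adjusted p = 2.7e-28), and FEN1 next to FADS2 did not pass the test (-0.10). ELOVL5 at -0.27 lies next to GCLC, the catalytic subunit of glutathione synthesis, which rose by 1.86 (standard error 0.08, edgeR adjusted p = 3.6e-23). ELOVL6 overlaps the uncharacterised ENSG00000288913 by 236 exon bases on the opposite strand, and without the counts of that gene its log2 ratio was -2.04.

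**Figure D4:**
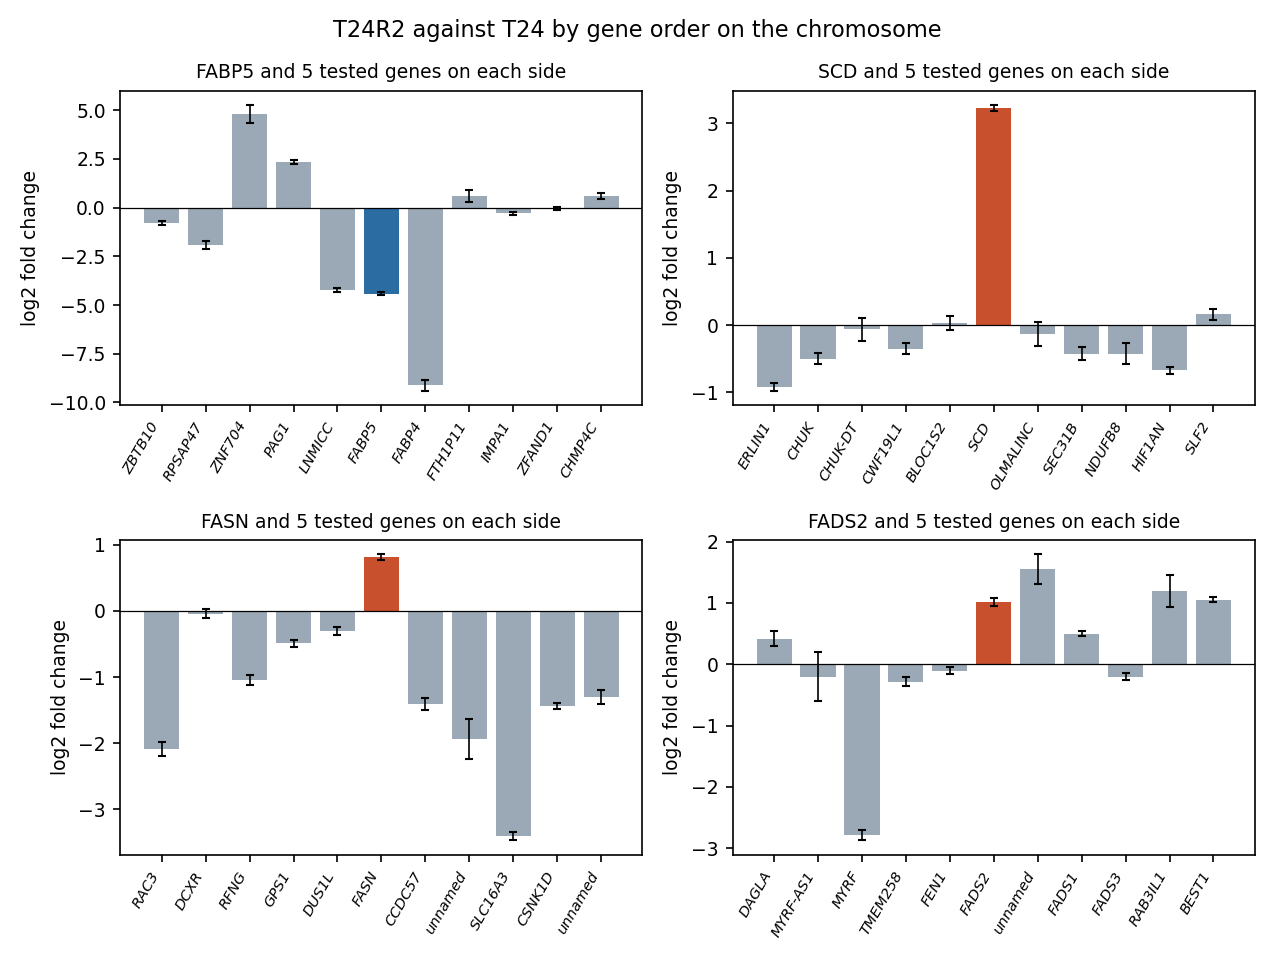
Log2 fold change in T24R2 against T24, with standard error, of FABP5, SCD, FASN and FADS2 (coloured) and of the 5 nearest tested genes on each side (grey), in the order of their starts. SCD at 3.23 and FASN at 0.81 stand above their neighbours. Of the neighbours of FADS2, 3 are called higher and 1 lower, and LNMICC and FABP4 beside FABP5 are also lower.

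Of 11 listed genes that supply substrate to fatty acid synthesis, or set its rate, 9 were tested. Of these, 7 were called higher and none lower, with a median log2 fold change of 1.23. The lists were drawn up with earlier results of these data known, so their counts are a description and nothing is drawn from them. They stand beside 24.9% and 26.5% of all genes called higher and lower. ME1, the cytosolic malic enzyme that makes NADPH for FASN, rose from 12.7 ± 2.45 to 69.5 ± 7.76 CPM (SD, n = 5 each; log2 fold change 2.46, standard error 0.09, edgeR adjusted p = 1.6e-24). IDH1, another cytosolic source of NADPH, rose from 43.2 ± 1.40 to 135 ± 8.75 CPM (1.64, standard error 0.06, edgeR adjusted p = 2.5e-26). ACSS2, which makes acetyl-CoA from acetate and was named after its value was seen, rose from 34.6 ± 2.80 to 81.3 ± 6.80 CPM (1.23, standard error 0.07, edgeR adjusted p = 1.7e-19). ACACB, the mitochondrial relative of ACACA whose malonyl-CoA restrains fatty acid import, rose from 1.93 ± 0.41 to 10.8 ± 1.49 CPM (2.47, standard error 0.18, edgeR adjusted p = 2.5e-15). Some genes of the list that rose act against synthesis. PRKAA2, a catalytic subunit of AMPK, which inhibits ACACA and ACACB, rose from 1.42 ± 0.58 to 25.0 ± 1.95 CPM (4.13, standard error 0.17, edgeR adjusted p = 5.8e-24). The other catalytic subunit of the list, PRKAA1, was 86.2 ± 3.23 and 109 ± 4.38 CPM and was not called (0.33, standard error 0.05). By TPM, PRKAA1 was above PRKAA2 within T24 (40.4 against 0.464) and within T24R2 (59.5 against 9.59). MLYCD, which breaks down malonyl-CoA, was called at 0.65 with overlapping libraries. The citrate carrier SLC25A1 was 144 ± 8.11 and 147 ± 8.72 CPM and was not called.

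The other genes of elongation and desaturation had 16 of 18 tested, with 1 called higher and 5 lower (median -0.03). ELOVL7, an elongase of saturated chains, was the gene that rose, from 4.43 ± 0.69 to 13.8 ± 2.34 CPM (SD, n = 5 each; log2 fold change 1.64, standard error 0.15, edgeR adjusted p = 1.4e-12). CYB5A and CYB5R3, which were listed as electron donors for desaturation, fell, and no other cytochrome b5 gene or reductase of it was in the list. CYB5A, cytochrome b5, went from 20.2 ± 1.26 to 8.15 ± 1.76 CPM (-1.30, standard error 0.12, edgeR adjusted p = 1.9e-12), and CYB5R3, its reductase, from 245 ± 10.7 to 155 ± 4.31 CPM (-0.67, standard error 0.04, edgeR adjusted p = 1.2e-16). Within T24R2, SCD stood at 564 TPM against 53.0 TPM for CYB5R3 and 3.15 TPM for CYB5A, and within T24 at 51.5 TPM against 72.0 and 6.68 TPM. HACD4 and DEGS2 were the remaining genes called lower beside SCD5. ELOVL1, which makes very long saturated chains, was 107 ± 4.77 CPM in T24 and 76.9 ± 2.59 CPM in T24R2 and was not called at -0.48 (standard error 0.05).

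Fatty acid uptake and activation had 12 of 17 genes tested, with 6 called higher and 3 lower (median 0.55). The acyl-CoA synthetases went in different directions. ACSL5 fell from 33.4 ± 2.68 to 1.61 ± 0.39 CPM (SD, n = 5 each; log2 fold change -4.37, standard error 0.14, edgeR adjusted p = 2.7e-27), while ACSL3 rose from 83.0 ± 5.68 to 153 ± 9.01 CPM (0.88, standard error 0.05, edgeR adjusted p = 4.5e-18) and ACSBG1 from 21.1 ± 1.64 to 45.0 ± 2.69 CPM (1.09, standard error 0.08, edgeR adjusted p = 6.7e-16). ACSL4, which prefers polyunsaturated acids and is known for its part in ferroptosis, was named after its value was seen, and rose from 155 ± 7.18 to 255 ± 11.5 CPM (0.72, standard error 0.05, edgeR adjusted p = 2.6e-17). ACSL6 had at most 1 count in T24 and 12.2 ± 1.21 CPM in T24R2, at least 37.9-fold higher against the floor of 3 counts per library; it too was named after its value was seen. CD36, SLC27A6 and LPL had at most 1 count in any library.

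Glycerolipid and lipid droplet genes had 21 of 23 tested, with 5 called higher and 7 lower (median -0.09). PLIN2, the coat protein of lipid droplets and a PPAR target, fell from 36.5 ± 3.51 to 1.03 ± 0.23 CPM (SD, n = 5 each; log2 fold change -5.13, standard error 0.15, edgeR adjusted p = 5.9e-29). DGAT2, which makes triacylglycerol from newly made fatty acids, fell from 25.2 ± 2.15 to 1.57 ± 0.78 CPM (-3.99, standard error 0.17, edgeR adjusted p = 3.1e-23), whereas DGAT1 was 25.2 ± 2.81 and 23.6 ± 1.87 CPM with overlapping libraries (-0.09, standard error 0.09, edgeR adjusted p = 0.36). LPIN1, a phosphatidate phosphatase and SREBP target, rose from 32.6 ± 1.83 to 143 ± 7.68 CPM (2.13, standard error 0.06, edgeR adjusted p = 9.3e-30), while its relative LPIN2 fell by 1.48 on the log2 scale. Fatty acid oxidation had all 20 genes tested, 4 called higher and 6 lower (median 0.03). CPT1A, which admits fatty acids to mitochondria, fell from 152 ± 4.85 to 82.6 ± 2.95 CPM (-0.88, standard error 0.05, edgeR adjusted p = 2.1e-19). ACADVL, the very long-chain acyl-CoA dehydrogenase, fell from 375 ± 15.0 to 160 ± 14.2 CPM (-1.23, standard error 0.05, edgeR adjusted p = 9.6e-24), and ECI2, an isomerase that serves the oxidation of unsaturated chains, fell by 1.58 on the log2 scale. The 4 oxidation genes called higher were ACADM (0.68), HADH (0.86), ACAA2 (0.87) and DECR1 (0.68). Over the 7 lists together, 54 of 104 tested genes were called (51.9%), which is near the 51.4% of all tested genes.

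**Figure D5:**
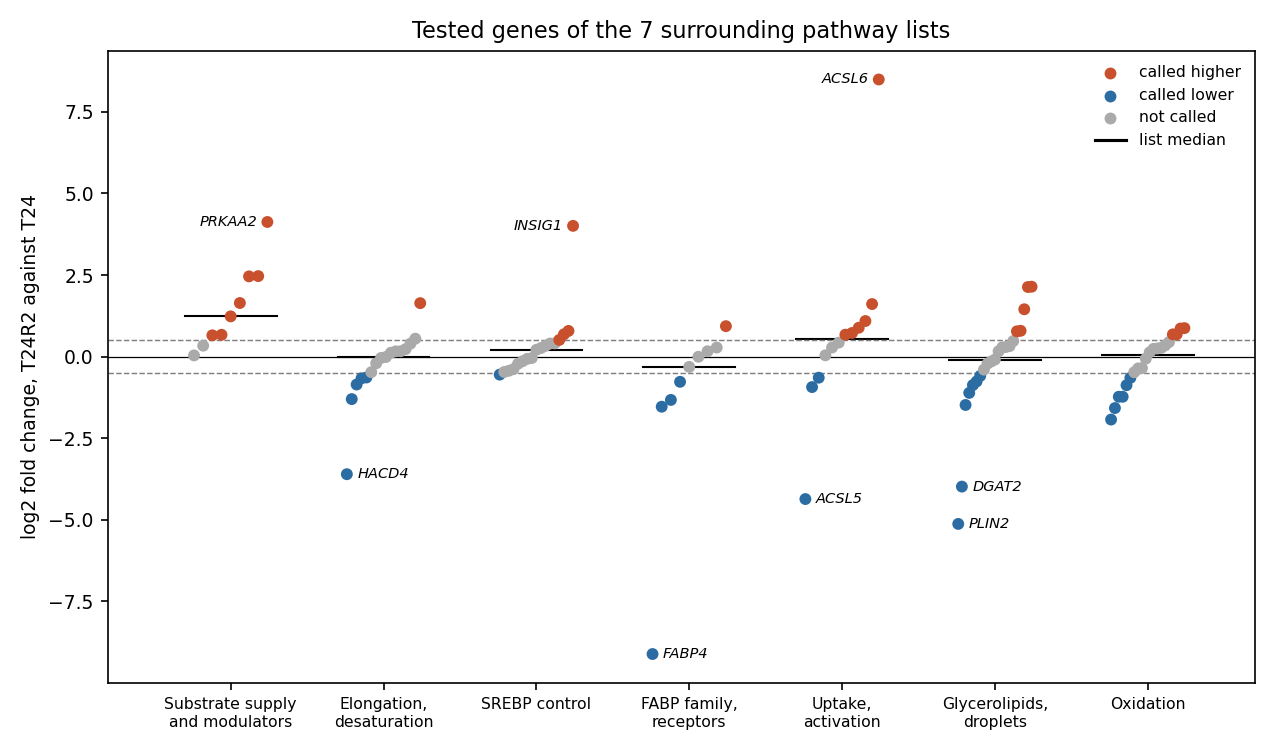
Log2 fold change in T24R2 against T24 of the 104 tested genes in 7 surrounding lists, with red points called higher, blue points called lower, grey points not called, a black line at each list median and dashed lines at the fold needed for a call. The substrate supply list has no gene called lower, and HACD4, DGAT2, ACSL5, PLIN2 and FABP4 are the lowest points; the value of FABP4, which is at the floor in T24R2, and that of ACSL6, at the floor in T24, depend on the prior count.

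By the distance between centred log2 CPM profiles over the 10 libraries, genes most like FABP5 among the 6530 genes of at least 32 mean CPM were MRC2 and PLAT. They had log2 fold changes of -4.11 and -3.98, and distances from FABP5 of 0.14 and 0.16 on the log2 scale. The genes most like SCD were P2RY6 (3.46), MAP3K7CL (3.44) and VIM (3.04), at distances of 0.09, 0.09 and 0.11. With 2 lines and 5 libraries each, such likeness reflects mostly the size of the difference between the lines.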

How the data were processed

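RNA-seq of 5 T24 and 5 T24R2 libraries was analysed, and the MeRIP-seq libraries were not used here. Each deposited file holds raw counts of fragments over genes. Per the submitters' processing notes, the paper's methods and the file headers, the authors used STAR 2.7.0 for alignment to hg38, SAMtools 1.10 to drop duplicates and reads that were not uniquely mapped, and counted genes of GENCODE release 39 with featureCounts 2.0.1 at strand option 1. Removal of duplicates may lower the counts of abundant transcripts. No row lacked a gene identifier, and 61369 of 61533 genes had a symbol.

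Counts were filtered (filterByExpr), TMM-normalized and tested with edgeR 4.0.16 (glmQLFit and glmQLFTest, Benjamini-Hochberg) in R 4.3.3, with all 10 libraries and no covariates. DESeq2 1.42.0 and limma 3.58.1 were alternatives. TPM used the exon lengths in the files. The floor was 3 counts per library, not exceeded by any library of a line, and floors and bounds cover counting error only. Simulated counts of 15303 tested genes with 200 changed in T24R2 against T24 gave 180 of them called and 1 unchanged gene called. That simulation left most genes unchanged, whereas 51.4% of tested genes were called in the data, so it does not measure the error rate here. Other steps ran in Python 3.11.15 (numpy 2.4.6, pandas 2.3.3, matplotlib 3.10.9).

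The 10 genes, the 7 lists and the rule for named genes were chosen with earlier results of these data known. Named were the 10 genes, up to 3 called genes of each list with the largest change at a mean of 10 CPM or more, 18 control genes whatever their value, the nearest tested neighbours, and the 3 profiles nearest to FABP5 and to SCD. Some genes that this rule covers are not reported here. ACSS2, ACSL4, ACSL6, NFYA, MLX, MLYCD, SLC25A1, HACD4, DEGS2, RXRA, DGAT1, LPIN2, FABP3, RAI1, the pseudogene copies and the further neighbours were named after their values were seen. Alternatives were other scalings, tools and filters, a fold of 1, a replicate block and each library left out. Removal of overlapping counts and addition of pseudogene copies were added after the data were seen.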

Additional observations from a re-analysis of the deposited data

Results flagged for a closer look

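In 83 groups of 5 libraries (the 10 genes and the named pathway genes in each line), a library was singled out when its gap to the nearest other library took more than 0.710 of the range of the group, which chance gives in about 1 in 20 groups. That happened in 3 groups and in none of the 10 genes. INSIG1 was 15.7 CPM in T24 replicate 2 and 11.6 to 12.0 CPM in the other T24 libraries, far under the 203 CPM of T24R2. DGAT2 was 2.94 CPM in T24R2 replicate 4 against 1.06 to 1.47 CPM in the others. CRABP2 was 0.275 CPM in T24R2 replicate 1 against 1.34 to 1.73 CPM in the others. The cause was not tested.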

How the results depend on the processing

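None of the 195 values of the 10 genes under alternatives changed direction, and the 7 that changed side of the thresholds were all of FADS1, which was called at 0.66 with no scaling beyond library size, 0.57 by upper-quartile scaling, 0.53 at a mean of at least 100 counts, and 0.50 to 0.53 without T24 replicate 3 or T24R2 replicate 1, 2 or 4. The lowest value of FADS1 was 0.32, without the FADS2 counts. Leaving out each library in turn gave 0.49 to 0.53 for FADS1, 3.20 to 3.26 for SCD and -4.46 to -4.35 for FABP5. Of 605 values of named genes, 8 changed sign, all of INSIG2 (to 0.09 at most) and PPARD (to 0.16 at most), which were not called under any setting, and 3 changed side: SCD5 (-0.48) and SCAP (0.57) without scaling, and ELOVL1 (-0.50) without T24 replicate 4. The median of all genes moved from 0.01 to 0.18 without scaling and to 0.09 with upper-quartile scaling, and fold changes move with it. A mean of at least 100 counts gave 2350 genes higher and 2641 lower, because fewer genes were tested. A log2 fold change over 1 gave 1918 and 2293 genes, and 3 of the 10 genes higher. In the elongation and desaturation list, 2 genes were called higher without scaling, and 0 higher and 3 lower at a mean of at least 100 counts. In SREBP control, 3 to 4 genes were called higher without each library, NFYA being lost without T24 replicate 1, 4 or 5 or T24R2 replicate 5. MLX, the gene called lower, was lost without scaling, with upper-quartile scaling and without T24R2 replicate 3 (0 lower, against 1 without each other library). Ordered by CPM, 4 of the 10 genes kept their rank in T24 and 3 in T24R2. With a replicate block, 3979 genes were called higher and 4261 lower, and no count of the 10 genes or of the lists changed. Same-numbered libraries did not deviate together (correlations -0.021 to 0.016) and 1 of 5 correlated best with its own number, so the numbers do not pair the libraries. Depth limits the values of genes near the floor of 3 counts; FABP5 in T24R2 rests on 50 to 69 counts per library.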
